A study of Homo sapiens with 8 samples.

Results

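The genes described here write, erase or read chemical marks on RNA. They were taken by gene symbol from the known enzymes and readers of RNA marks. They number 32, and all 32 stood in both deposited expression tables, among 11807 genes listed in both tables and 13703 listed in either. RNA was measured in 2 human osteosarcoma cell lines, HOS and 143B, the latter a Ki-ras-transformed derivative of HOS. Each line was sampled as control cells (NC) and as cells labelled sgNAT10, a guide RNA against NAT10, which the series' design text calls knockout cells. There were 2 libraries in each of the 4 groups, 8 in all. The guide's sequence, the exon it cuts, and whether the cells were a clone or a pool are not given in the sources used here. Nothing in the labels ties the 2 libraries of a group to separate cultures, so the p-values below speak only of the spread among these libraries, and that spread may be technical. Levels are FPKM, mapped fragments scaled to transcript length and to the library's total. Being per length, they can be set side by side between genes. That scaling does not take out differences that go with base composition, which are given below.

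Marks on RNA are placed by writer enzymes, removed in some cases by erasers, and bound by reader proteins. NAT10 acetylates cytidine to N4-acetylcytidine (ac4C) in ribosomal and transfer RNA, and it has been described to act on messenger RNA, while THUMPD1 is its adaptor for transfer RNA. N6-methyladenosine (m6A) is written on messenger RNA by METTL3 and METTL14 with WTAP, ZC3H13 and RBM15, removed by ALKBH5 and FTO, and read by the YTH-domain and IGF2BP proteins. The other members handle 5-methylcytosine (m5C), pseudouridine, 7-methylguanosine (m7G), 1-methyladenosine (m1A), the methylated cap nucleotide m6Am, and adenosine-to-inosine editing.

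The upstream sequences of NAT10 and of 3 members called in the same direction in both lines are shown. IGF2BP1, also called in the same direction in both lines, had no matched upstream sequence. Each run is the 250 bases before the RefSeq start, 5′ to 3′ on the gene's strand (RefSeq, GRCh38.p14). They lie at chr11:34105379-34105628 (plus strand, NAT10), chr1:42682168-42682417 (plus, YBX1), chr17:2511889-2512138 (minus, METTL16) and chr14:103528946-103529195 (plus, TRMT61A). Capitals mark matches on either strand to CCAAT or to CACGTG or to GGGCGG.
NAT10: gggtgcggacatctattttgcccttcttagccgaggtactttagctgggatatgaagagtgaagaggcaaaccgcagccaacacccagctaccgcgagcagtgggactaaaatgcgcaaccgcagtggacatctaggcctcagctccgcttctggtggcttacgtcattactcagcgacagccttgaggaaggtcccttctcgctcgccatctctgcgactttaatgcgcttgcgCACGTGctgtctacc
YBX1: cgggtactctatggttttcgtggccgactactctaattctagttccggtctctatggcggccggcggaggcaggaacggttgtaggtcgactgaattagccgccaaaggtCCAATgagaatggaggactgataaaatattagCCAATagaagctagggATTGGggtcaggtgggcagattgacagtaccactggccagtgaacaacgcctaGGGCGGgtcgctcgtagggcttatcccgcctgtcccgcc
METTL16: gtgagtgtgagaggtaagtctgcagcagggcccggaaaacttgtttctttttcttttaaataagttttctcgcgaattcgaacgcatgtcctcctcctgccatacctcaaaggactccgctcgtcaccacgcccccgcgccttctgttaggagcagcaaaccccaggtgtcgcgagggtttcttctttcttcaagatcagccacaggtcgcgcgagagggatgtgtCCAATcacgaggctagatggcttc
TRMT61A: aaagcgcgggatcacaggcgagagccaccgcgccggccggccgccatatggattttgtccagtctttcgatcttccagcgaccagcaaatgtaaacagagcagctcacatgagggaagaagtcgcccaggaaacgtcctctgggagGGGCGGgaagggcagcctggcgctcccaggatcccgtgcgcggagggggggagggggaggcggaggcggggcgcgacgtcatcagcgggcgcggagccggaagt
NAT10 held 1 CACGTG match and YBX1 held 3 of CCAAT and 1 of GGGCGG. Such windows could be matched for 27 members: 11 held CCAAT (40.7%, against 11240 of 35116 RefSeq promoters of this length), 5 held CACGTG (18.5%, against 6.3% of those promoters) and 16 held GGGCGG (59.3%, against 42.6%). A match describes letters in the window and nothing more.

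Read depth is unknown, because the tables give FPKM without read counts. Summed over the listed genes, FPKM ran from 484793 to 798137 per library, and the members together took between 0.129% and 0.294% of it. Log2 values of the 2 libraries of a group correlated at 0.979 and 0.986 in 143B and at 0.995 and 0.997 in HOS (Pearson's r across genes, which are not independent replicates). In 143B the libraries of a group also differed by base composition: replicate 2 minus replicate 1 in NC followed the GC content of the transcript with a Spearman's rho of -0.74 over 11281 genes and of -0.72 over 31 members, and in sgNAT10 with -0.61 over both sets. Of the osteoblast lineage markers, 6 of 10 were listed in 143B and 7 of 10 in HOS, and their summed level was 61.3 to 86.8 FPKM in 143B NC, 21.4 to 27.8 in 143B sgNAT10, 671 to 762 in HOS NC and 812 to 884 in HOS sgNAT10. The sums cover unlike sets, as COL1A2 was listed in HOS only. In NC, RUNX2, ALPL, COL1A1 and SPARC were higher in HOS. MSX2 (5.45 and 7.16 FPKM in 143B, 2.15 and 2.89 in HOS) and SPP1 (5.90 and 12.93, 1.33 and 0.71) were higher in 143B. The mesenchymal marker VIM stood at 1339 and 1741 FPKM in 143B NC and 482 and 766 in sgNAT10. CDH2 was at 6.69 and 13.17, and 12.12 and 21.02. SP7, a transcription factor of osteoblast commitment, and the late markers BGLAP and IBSP were listed in neither table. Among the blood markers CD68 was listed (103 to 126 FPKM in 143B NC, 45.6 to 50.2 in 143B sgNAT10, 15.3 to 17.2 in HOS), and epithelial markers summed to 2.07 to 3.77 FPKM in 143B and 19.1 to 22.04 in HOS. PTPRC, CD3E and HBB were listed in neither table, and no endothelial marker was listed in 143B. The part of these differences in the results below was not tested. In bulk samples fewer cells of a type and less RNA per cell cannot be told apart.

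In 143B a minority of these genes were called, and in HOS most were. The extreme changes were -2.33 and 1.56 in 143B and -0.61 and 1.17 in HOS. Every tested member had the larger standard error in 143B (NAT10 0.31, against 0.10 in HOS). Changes of a size called in HOS could therefore go uncalled in 143B, and the counts do not compare the extent of change. In the fit reported here the members' share of calls was below that of all genes in 143B and above it in HOS. That order depended on the processing. After the length and GC correction given below, the share was above that of all genes in 143B and below it in HOS. In 143B, 5 members rose and 3 fell in the sgNAT10 libraries out of 31 tested, where 38.3% of all 11419 genes were called (12.9% higher, 25.4% lower). In HOS, 19 rose and 8 fell out of 32, where 68.5% of all 11957 genes were called (45.5% higher, 23.0% lower). The median change over the members was -0.035 in 143B and 0.31 in HOS on the log2(FPKM + 1) scale, against -0.25 and 0.19 over all genes tested. On this scale the changes of low genes are understated. Called means an adjusted p below 0.05 from limma, a linear model that pools the spread over genes, with Benjamini-Hochberg adjustment over all genes tested. For 1 gene alone, exact permutation of 2 and 2 libraries allows no p below 0.33. TRDMT1 was too low to test in 143B.

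**Figure D1:**
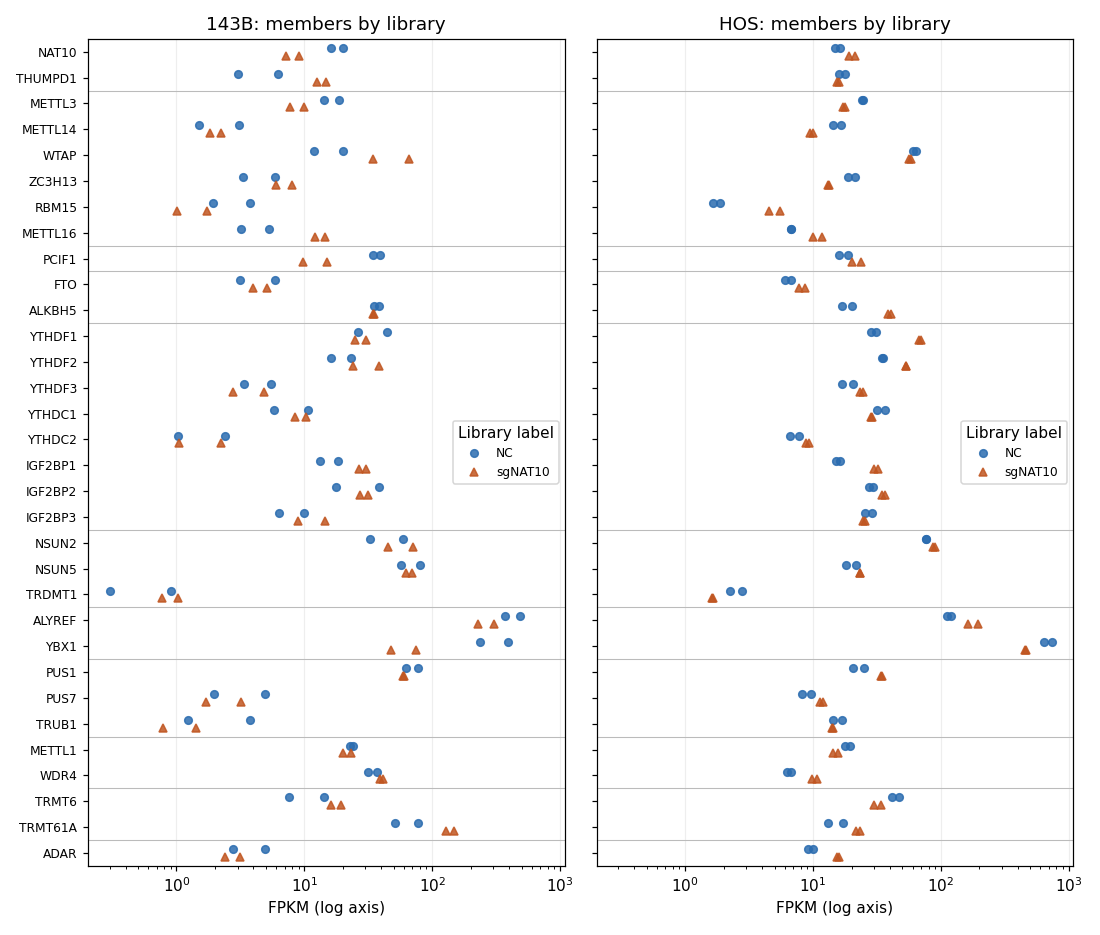
FPKM of the 32 members on a log axis in each library of 143B (left) and HOS (right), with NC as blue circles and sgNAT10 as orange triangles, grouped by role. Groups are tight in HOS, where the labels overlap for 1 member only (IGF2BP3), whereas in 143B they overlap for 16.

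The libraries of the 2 labels did not overlap for 16 members in 143B and for 31 in HOS, where 66.8% and 83.1% of all tested genes did not. The calls depend on the scaling of whole libraries, which moved the median of all genes between -0.53 and -0.017 in 143B and between -0.0079 and 0.37 in HOS. In 143B they were 2 higher and 5 lower with all libraries set to the same summed FPKM, 8 and 2 under median-ratio scaling, and 9 and 4 under quantile normalization. Of all 11419 genes the same settings called 896 higher and 3736 lower, 2361 and 2541, and 2797 and 2847. After correction for transcript length and GC content the members' calls were 13 and 5, against 3033 and 3133 of 11281 genes. In HOS they were 11 higher and 12 lower under median-ratio scaling, 12 and 10 under quantile normalization, and 11 and 8 after the length and GC correction. Over all HOS genes these settings called 3762 higher and 4038 lower of 11957, 3890 and 3806 of 11957, and 3743 and 3927 of 11826. In HOS, 4 calls were left when the spread was shared by all 8 libraries, those of RBM15, ALKBH5, YTHDF1 and IGF2BP1. Of 10655 genes, 1562 were then called higher and 302 lower. In 143B the same setting kept every call and added METTL3, RBM15, ALYREF and TRMT6, beside 1765 genes higher and 3788 lower. Leaving out either sgNAT10 library lowered the number of calls in both lines, among the members and over all genes alike. Without sgNAT10 replicate 1 the members' median change was 0.13 in 143B and 0.27 in HOS, against -0.18 and 0.16 over all genes. Without sgNAT10 replicate 2 it was -0.052 and 0.33, against -0.42 and 0.18. In 143B, THUMPD1 (adjusted p = 0.0706), WTAP (0.0548) and IGF2BP1 (0.199) lost their calls with libraries set to the same sum, and NAT10 (0.0601) under median-ratio scaling. In HOS, 8 members lost theirs under median-ratio scaling, with adjusted p from 0.258 to 0.797: NAT10, PCIF1, FTO, YTHDF3, YTHDC2, IGF2BP2, NSUN2 and PUS7. Under the same scaling THUMPD1, WTAP, IGF2BP3 and TRUB1 fell in HOS, with adjusted p from 0.00288 to 0.0124. With libraries set to the same sum YTHDC1 (0.822) and METTL1 (0.467) lost their HOS calls and NSUN5 rose (0.43, adjusted p = 0.000404).

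**Figure D2:**
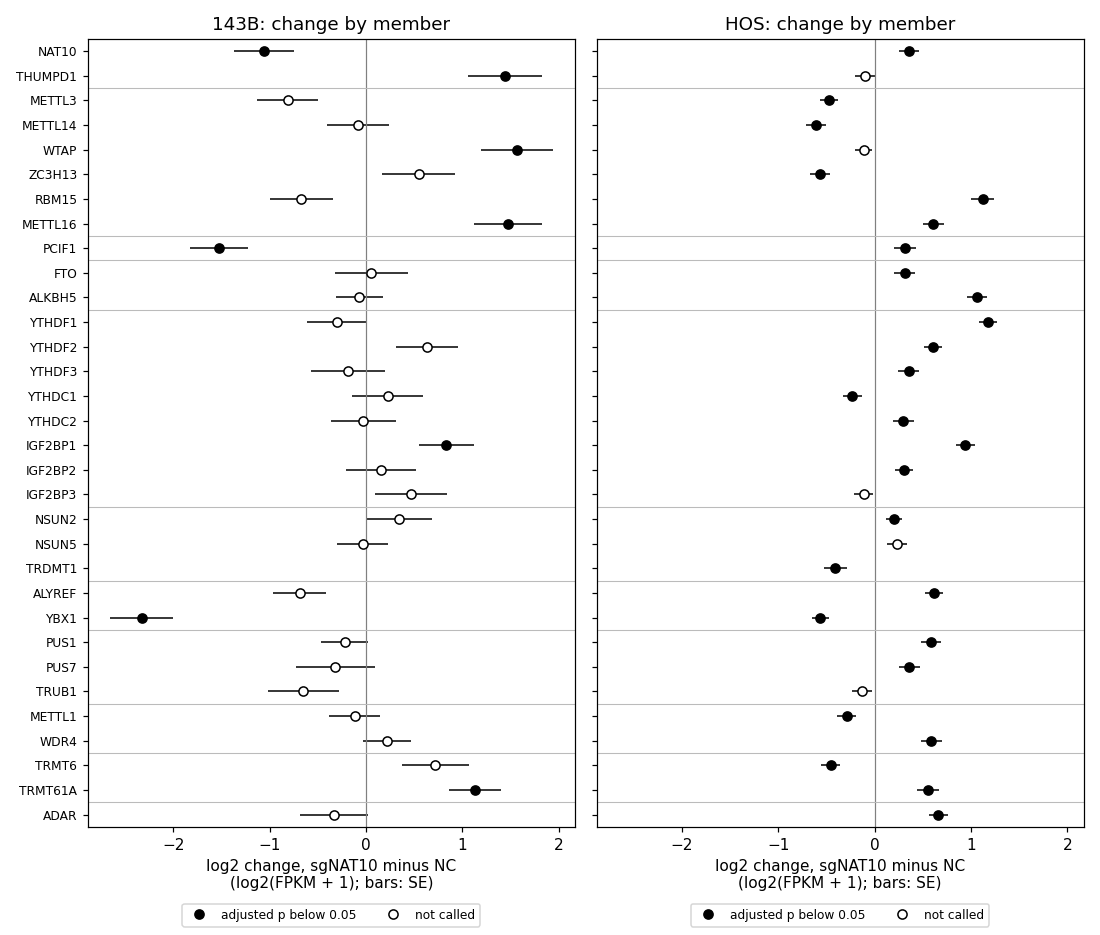
Log2 change of each member, sgNAT10 minus NC, in 143B (left) and HOS (right), with bars for the standard error and filled points for an adjusted p below 0.05. The bars are shorter in HOS, where 27 members are called, than in 143B, where 8 are.

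The acetyltransferase and its adaptor moved apart in 143B. NAT10 (chr11:34105602-34147670, plus strand of GRCh38, protein coding) stood at 16.06 and 19.95 FPKM in 143B NC and at 9.05 and 7.19 in 143B sgNAT10 (log2 change -1.06, SE 0.31, adjusted p = 0.0259). THUMPD1 (chr16:20702816-20742084, minus strand) stood at 3.02 and 6.19 FPKM in 143B NC and at 12.46 and 14.83 in sgNAT10 (1.44, SE 0.38, adjusted p = 0.0174). For both genes the labels did not overlap, so that the lower of the pair in the controls was the higher under sgNAT10. HOS NC libraries held 14.86 and 16.22 FPKM of NAT10 and those labelled sgNAT10 held 21.13 and 19.14 (0.35, SE 0.10, adjusted p = 0.00544). NAT10 RNA was therefore not lower in the HOS libraries labelled sgNAT10, and every direction given for HOS is that of libraries so labelled. NAT10 protein was not measured here. THUMPD1 in HOS was at 17.86 and 16.07 FPKM in NC and at 15.52 and 15.94 in sgNAT10, and was not called (-0.10, adjusted p = 0.382). With single libraries left out, the 143B change of NAT10 was not called in 3 cases: -0.91 without NC replicate 2 (adjusted p = 0.067), -1.21 without the first sgNAT10 library (0.113) and -0.91 without the second (0.228). After the length and GC correction NAT10 was at -0.54 in 143B (adjusted p = 0.0303) and at -0.079 in HOS (0.299), where leaving out sgNAT10 replicate 1 also ended its call (0.179). THUMPD1 in 143B was not called without sgNAT10 replicate 1 (adjusted p = 0.0766) or replicate 2 (0.145). THUMPD1 overlaps ACSM3 on the other strand, and strand is not stated for the counting.

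Among the m6A writers the catalytic pair fell in HOS while associated factors split. METTL3, the catalytic subunit (chr14:21498133-21511375, minus strand), stood at 24.80 and 24.33 FPKM in HOS NC and at 17.63 and 17.19 in sgNAT10 (-0.47, SE 0.10, adjusted p = 0.000334). METTL14, its RNA-binding partner (chr4:118685368-118715433, plus strand), stood at 16.59 and 14.33 in NC and 9.53 and 9.99 in sgNAT10 (-0.61, adjusted p = 9.25e-05). ZC3H13, which holds the complex in the nucleus, fell as well, from 21.46 and 18.82 to 13.36 and 13.13 FPKM (-0.57). These 3 calls in HOS held under every alternative tried except the spread shared by all 8 libraries (adjusted p = 0.132, 0.115 and 0.146). RBM15, which guides the complex to its RNAs (chr1:110338506-110346681, plus strand), went the other way, from 1.86 and 1.65 FPKM in HOS NC to 5.49 and 4.51 in sgNAT10 (1.12, SE 0.12, adjusted p = 6.28e-07). In 143B neither METTL3 (-0.81, adjusted p = 0.0708) nor RBM15 (-0.67, adjusted p = 0.136) was called, although for both the sgNAT10 libraries lay below NC. Leaving out NC replicate 1 gave a call for METTL3 (adjusted p = 0.0452) and for RBM15 (-1.02, adjusted p = 0.00922). After the length and GC correction METTL3 was at -0.54 in 143B (adjusted p = 0.0183), while RBM15 was at -0.018 there and at 0.61 in HOS. METTL3 overlaps TOX4 on the other strand.

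WTAP, the regulatory subunit that brings METTL3 and METTL14 to nuclear speckles (chr6:159725585-159756319, plus strand), rose in 143B. Its levels there were 11.93 and 19.94 FPKM in NC and 34.43 and 65.82 in sgNAT10 (1.56, SE 0.37, adjusted p = 0.0116). The sgNAT10 libraries were both higher than NC but differed from each other, and without sgNAT10 replicate 2 the change was 1.11 and not called (adjusted p = 0.0953). In HOS it was between 56.1 and 63.6 FPKM in all 4 libraries and not called (-0.12). WTAP overlaps SOD2 on the other strand. METTL16, a separate m6A writer that acts on U6 RNA and on the MAT2A transcript (chr17:2405562-2511891, minus strand), rose in both lines. In 143B NC libraries held 3.18 and 5.28 FPKM and sgNAT10 libraries 12.18 and 14.37 (1.47, SE 0.35, adjusted p = 0.0119). HOS held 6.76 in both NC libraries and 11.71 and 9.98 in sgNAT10 (0.61, adjusted p = 0.000133). Its 143B call ended on leaving out sgNAT10 replicate 1 (adjusted p = 0.0733) or replicate 2 (0.137), and its HOS value was 0.17 after the length and GC correction (adjusted p = 0.0852).

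PCIF1, which methylates the cap-adjacent adenosine to m6Am (chr20:45934628-45948023, plus strand), fell in 143B and rose in HOS. Its levels were 39.29 and 34.70 FPKM in 143B NC and 15.11 and 9.73 in sgNAT10 (-1.53, SE 0.30, adjusted p = 0.00544), a call kept under every alternative tried in that line, with -0.72 after the length and GC correction. Its levels were 15.82 and 18.91 FPKM in HOS NC and 23.65 and 20.01 in sgNAT10 (0.31, adjusted p = 0.0194). The HOS call ended on leaving out NC replicate 1 (adjusted p = 0.10) or sgNAT10 replicate 1 (0.361), and the value was -0.038 after the length and GC correction. With NAT10 it made 2 members called in opposite directions, where 19.4% of the 10655 genes tested in both lines were. YBX1, METTL16, IGF2BP1 and TRMT61A were called in the same direction in both lines, 4 members where 6.12% of genes were.

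Both erasers rose in HOS, and neither was called in 143B. The difference between lines was -1.13 for ALKBH5 (SE 0.25, adjusted p = 0.00494) and -0.25 for FTO (SE 0.37, adjusted p = 0.599). That of ALKBH5 was not called after the length and GC correction (-0.14, adjusted p = 0.436) or under median-ratio scaling (-0.63, adjusted p = 0.106). ALKBH5, the nuclear m6A demethylase (chr17:18183078-18209954, plus strand), stood at 16.94 and 20.25 FPKM in HOS NC and at 41.05 and 38.44 in sgNAT10 (1.06, SE 0.10, adjusted p = 2.60e-07). In 143B it was between 34.5 and 38.2 FPKM in all 4 libraries (-0.068, adjusted p = 0.85, and 0.59 after the length and GC correction, adjusted p = 0.0117). ALKBH5 in HOS was 0.73 after the same correction, and it was called under every alternative tried there. FTO, which removes m6A and cap m6Am (chr16:53701692-54158512, plus strand), rose less in HOS, from 6.08 and 6.72 to 7.77 and 8.59 FPKM (0.31, adjusted p = 0.0191). Leaving out sgNAT10 replicate 1 (adjusted p = 0.0726) or replicate 2 (0.245) ended that call, and the value was -0.17 after the length and GC correction. In 143B FTO was at 3.12 and 5.87 FPKM in NC and at 3.99 and 5.13 in sgNAT10, with the labels overlapping. FTO overlaps RPGRIP1L on the other strand.

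All 3 cytoplasmic YTHDF readers, which bind m6A and affect translation and decay of the RNA, rose in HOS. YTHDF1 (chr20:63195429-63216234, minus strand) stood at 28.41 and 31.10 FPKM in HOS NC and at 69.48 and 67.07 in sgNAT10 (1.17, SE 0.09, adjusted p = 2.86e-08). YTHDF2 (chr1:28736621-28769775, plus strand) went from 35.29 and 34.45 to 53.36 and 53.70 FPKM (0.60, adjusted p = 1.72e-05), and YTHDF3 from 20.43 and 16.85 to 24.51 and 23.42 (0.35, adjusted p = 0.00727). Summed, the 3 paralogs took 84.1 and 82.4 FPKM in HOS NC and 147 and 144 in sgNAT10, so that YTHDF1 passed YTHDF2 as the most abundant. In 143B none was called, and the difference between lines was called for YTHDF1 (-1.48) and not for YTHDF2 (0.032, adjusted p = 0.95) or YTHDF3 (-0.54, adjusted p = 0.284). The 143B sums of the 3 overlapped, at 46.0 and 72.8 FPKM in NC and 52.01 and 73.8 in sgNAT10. For YTHDF3 the call needed both HOS sgNAT10 libraries (adjusted p = 0.125 without replicate 1 and 0.0583 without replicate 2). In 143B YTHDF2 was at 16.21 and 22.96 FPKM in NC and at 24.22 and 38.51 in sgNAT10 (0.64, adjusted p = 0.148). Its change was 0.88 and called without NC replicate 2. Under median-ratio scaling (0.91, adjusted p = 0.0435) and quantile normalization (0.98, 0.00566) it was called. It was also called after the length and GC correction (0.87, adjusted p = 0.00148).

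The YTHDC readers moved little. YTHDC1, the nuclear reader linked to splicing and export, fell in HOS from 36.57 and 31.49 to 28.38 and 29.07 FPKM (-0.23, adjusted p = 0.0442), and YTHDC2, a helicase needed in the germ line, rose from 7.70 and 6.62 to 9.25 and 8.76 (0.30, adjusted p = 0.0248). Both calls were lost when a library was left out: that of YTHDC1 without NC replicate 1 (adjusted p = 0.133), sgNAT10 replicate 1 (0.301) or sgNAT10 replicate 2 (0.219), and that of YTHDC2 without NC replicate 2 (0.0713), sgNAT10 replicate 1 (0.225) or sgNAT10 replicate 2 (0.11). In 143B the labels overlapped for both, with YTHDC1 between 5.7 and 10.6 FPKM and YTHDC2 between 1.02 and 2.38.

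Of the IGF2BP readers, oncofetal proteins that stabilise their target messenger RNAs, IGF2BP1 rose in both lines. It lies at chr17:48997412-49055650 on the plus strand. Its levels in NC were 13.16 and 18.30 FPKM in 143B and 15.17 and 16.29 in HOS, and under sgNAT10 they were 30.29 and 26.77 in 143B (0.83, SE 0.29, adjusted p = 0.0469) and 32.27 and 29.93 in HOS (0.94, SE 0.10, adjusted p = 5.10e-07). In each line, then, the level went from near 16 to near 30 FPKM, and the difference between lines was -0.11 (SE 0.29, adjusted p = 0.785). After the length and GC correction the changes were 1.13 in 143B and 0.35 in HOS, both called, and their difference was 0.77 (adjusted p = 0.00498). The 143B call ended on leaving out NC replicate 1 (adjusted p = 0.196), sgNAT10 replicate 1 (0.323) or sgNAT10 replicate 2 (0.18). IGF2BP2 in HOS rose from 29.68 and 27.63 to 36.40 and 34.72 FPKM (0.30, adjusted p = 0.00867; without sgNAT10 replicate 1 or 2 adjusted p = 0.192 and 0.0921). IGF2BP3 was called in neither line, at 29.08 and 25.30 FPKM in HOS NC and 25.49 and 24.56 in sgNAT10. It was called in HOS on leaving out NC replicate 2 (-0.21, adjusted p = 0.0227).

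The m5C readers gave the largest fall among the members. YBX1, a cold-shock domain protein that binds m5C and packages messenger RNA (chr1:42682427-42702349, plus strand), stood at 234 and 394 FPKM in 143B NC and at 47.84 and 74.41 in sgNAT10 (-2.33, SE 0.33, adjusted p = 0.00189). HOS NC libraries held 734 and 636 FPKM and those labelled sgNAT10 held 466 and 458 (-0.56, SE 0.09, adjusted p = 2.26e-05). In both lines every sgNAT10 library lay below both NC libraries, and in 143B the call was kept under every alternative tried, with changes from -2.70 to -1.95. In HOS it was lost under quantile normalization (adjusted p = 0.055) and with the spread shared by all 8 libraries (0.166). YBX1 has 10 annotated pseudogenes by name in GENCODE, whose reads such a table may share, so its level is uncertain. THUMPD1, WTAP, FTO, YTHDF1 and YTHDF2 have 1 each. ALYREF, an export adaptor that reads m5C (chr17:81887844-81891586, minus strand), stood at 112 and 120 FPKM in HOS NC and at 194 and 163 in sgNAT10 (0.61, adjusted p = 2.56e-05). In 143B it was at 488 and 371 in NC and 304 and 227 in sgNAT10 (-0.69, adjusted p = 0.0774), which was called without NC replicate 2 (-0.89, adjusted p = 0.0242). ALYREF overlaps ANAPC11 on the other strand.

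The m5C writers changed little. NSUN2, which methylates transfer and messenger RNA, was at 76.63 and 76.46 FPKM in HOS NC and at 86.77 and 89.29 in sgNAT10 (0.20, adjusted p = 0.0462). That value was -0.028 under median-ratio scaling and -0.038 after the length and GC correction, and the call ended without sgNAT10 replicate 1 (adjusted p = 0.249) or replicate 2 (0.347). In 143B NSUN2 was at 0.34 and not called, and at 0.63 after that correction (adjusted p = 0.0155). NSUN5, which methylates 28S ribosomal RNA, was called in neither line, with 56.5 to 79.8 FPKM in 143B and 18.0 to 23.4 in HOS, and it was called in HOS without NC replicate 2 (0.36, adjusted p = 0.00104). NSUN5 has 2 named pseudogenes and its values are uncertain. TRDMT1, a transfer RNA methyltransferase, fell in HOS from 2.76 and 2.25 to 1.66 and 1.61 FPKM (-0.41, adjusted p = 0.00511, and 0.0517 on leaving out NC replicate 1). It was at -0.16 and not called after the length and GC correction (adjusted p = 0.149). TRDMT1 in 143B had 0.30 and 0.91 FPKM in NC and 0.77 and 1.03 in sgNAT10, with overlapping labels.

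Of the stand-alone pseudouridine synthases PUS1 and PUS7 rose in HOS, and none of the 3 was called in 143B. PUS1, which modifies transfer RNA and messenger RNA (chr12:131929200-131945896, plus strand), stood at 20.37 and 24.91 FPKM in HOS NC and 34.67 and 33.89 in sgNAT10 (0.58, adjusted p = 0.00011). PUS7 stood at 9.62 and 8.23 in NC and 11.43 and 11.97 in sgNAT10 (0.36, adjusted p = 0.00767), a call that ended without sgNAT10 replicate 1 (adjusted p = 0.0625) or replicate 2 (0.116). TRUB1, which modifies the T-loop of transfer RNA, was not called (-0.13). It was called on leaving out NC replicate 2 (-0.24, adjusted p = 0.0181) and, with the other sign, after the length and GC correction (0.15, adjusted p = 0.0472). In 143B the 3 stood between -0.65 and -0.22 without a call. TRUB1 was called there without NC replicate 1 (adjusted p = 0.00123) and after the length and GC correction (-0.85, adjusted p = 0.00286). PUS1 changed sign in 143B after the length and GC correction, to 0.59 (adjusted p = 0.0166), and in HOS went to 0.069 (0.342).

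The 2 partners of each transfer RNA methyltransferase complex moved in opposite directions in HOS. METTL1, the catalytic subunit for m7G (chr12:57768471-57772793, minus strand), fell from 19.45 and 17.83 to 14.42 and 15.70 FPKM (-0.29, adjusted p = 0.0177), and WDR4, its scaffold (chr21:42843094-42879568, minus strand), rose from 6.23 and 6.76 to 10.70 and 9.81 (0.59, adjusted p = 0.000148). TRMT6, the non-catalytic subunit for m1A (chr20:5937235-5950558, minus strand), fell from 46.69 and 41.65 to 29.92 and 33.95 FPKM (-0.46, adjusted p = 0.000629), and TRMT61A, the catalytic subunit (chr14:103529184-103537073, plus strand), rose from 13.09 and 17.00 to 21.64 and 23.15 (0.55, adjusted p = 0.000436). The METTL1 call ended without sgNAT10 replicate 1 (adjusted p = 0.281) or replicate 2 (0.0905), and that of TRMT6 without sgNAT10 replicate 1 (0.0614). In 143B TRMT61A rose from 77.27 and 50.78 to 149 and 129 FPKM (1.13, SE 0.27, adjusted p = 0.0123; 1.03 without sgNAT10 replicate 1, adjusted p = 0.0681). After the length and GC correction TRMT61A was at 2.01 in 143B and at 0.16 in HOS (adjusted p = 0.0908). TRMT6 in 143B was at 7.58 and 14.20 in NC and 19.50 and 16.26 in sgNAT10 (0.72, adjusted p = 0.137). Without NC replicate 2 its change was 1.13 and called. Under median-ratio scaling (0.99, adjusted p = 0.0186) and quantile normalization (1.05, 0.00316) it was called. It was also called there after the length and GC correction (0.60, adjusted p = 0.0374). METTL1 (-0.12) and WDR4 (0.22) were not called there, and after that correction they were at 0.51 and 0.89, both called. In HOS they were then at -0.53 and 0.33, also called. METTL1 overlaps CYP27B1 on its own strand and EEF1AKMT3 on the other.

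ADAR, which edits adenosine to inosine in double-stranded RNA (chr1:154582057-154628013, minus strand), rose in HOS from 9.98 and 9.20 to 16.05 and 15.43 FPKM (0.66, SE 0.10, adjusted p = 2.91e-05). After the length and GC correction the value was 0.11 and not called (adjusted p = 0.139). In 143B it was at 2.77 and 4.88 FPKM in NC and at 2.39 and 3.11 in sgNAT10, with overlapping labels (-0.33).

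For 13 of 31 members the change differed between the lines by a test of the difference itself (143B minus HOS, in 1 fit of all 8 libraries), where 49.1% of 10655 genes did (12.9% higher, 36.2% lower). It was higher in 143B for THUMPD1, WTAP, ZC3H13 and TRMT6 and lower for the other 9. The differences of PCIF1 (-1.84, SE 0.33, adjusted p = 0.00191), YTHDF1 (-1.48, SE 0.34, adjusted p = 0.00681) and YBX1 (-1.77, SE 0.39, adjusted p = 0.0052) were called under every alternative tried. Over those alternatives they ranged from -2.36 to -0.68, from -2.01 to -0.58 and from -2.31 to -1.26, and the values of PCIF1 and YTHDF1 nearest to 0 came from the length and GC correction. For NAT10 the difference was -1.41 (SE 0.29, adjusted p = 0.00359) and -0.46 after the length and GC correction (adjusted p = 0.0752). That correction also ended the calls of RBM15 (-0.63, adjusted p = 0.0741), ALKBH5 (-0.14, 0.436) and ADAR (-0.15, 0.432), and turned PUS1 (0.52, 0.0288). Median-ratio scaling ended those of ALKBH5 (-0.63, 0.106), ALYREF (-0.79, 0.161), PUS1 (-0.30, 0.513) and ADAR (-0.56, 0.0886). With libraries set to the same sum THUMPD1 (1.05, 0.0762), WTAP (1.15, 0.0826), ZC3H13 (0.63, 0.235) and TRMT6 (0.66, 0.222) were not called. The median difference was -0.26 over the members and -0.44 over all genes. With libraries set to the same sum 0 members were higher and 11 lower, against 625 and 5156 of 10655 genes. Under median-ratio scaling 8 were higher and 5 lower, against 2662 and 2709 of those genes. Under quantile normalization they were 10 and 7, against 2819 and 3077. After the length and GC correction they were 12 and 8, against 2910 and 3230 of 10559 genes. Without HOS NC replicate 1 fewer differences were called, among the members and over all genes alike, and that of WTAP (1.64) was among those lost. The call of ZC3H13 ended without 143B sgNAT10 replicate 2 or any 1 of the HOS libraries (adjusted p from 0.0746 to 0.125). Those of TRMT6 (0.0656 to 0.107) and ADAR (0.103 to 0.13) ended without 143B sgNAT10 replicate 1 or any 1 of the HOS libraries, and that of PUS1 without any 1 of the sgNAT10 libraries or HOS NC replicate 1 (0.0538 to 0.129). Without 143B NC replicate 1 a difference was called for IGF2BP2, PUS7, TRUB1 and TRMT61A (0.0114 to 0.0325), and without 143B NC replicate 2 for METTL14, METTL16 and YTHDC1 (0.00421 to 0.0188).

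The most abundant members of the control cells differed between the lines. The tables were normalized separately, so levels are set side by side without a test. In 143B NC they were ALYREF (429 ± 82.7 FPKM, SD, n = 2), YBX1 (314 ± 113), PUS1 (69.9 ± 11.1), NSUN5 (68.2 ± 16.5) and TRMT61A (77.27 and 50.78). The first pair overlapped in their libraries, as did the 3 that followed. NSUN2 (32.87 and 59.43) overlapped NSUN5 (79.82 and 56.52) and TRMT61A, so the places of those genes are not clear. In HOS NC they were YBX1 (734 and 636), ALYREF (116 ± 5.40), NSUN2 (76.5 ± 0.12), WTAP (61.9 ± 2.40) and TRMT6 (44.2 ± 3.56), each above the next in both libraries. The lowest were TRDMT1 (0.605 ± 0.431), YTHDC2 (1.70 ± 0.962) and METTL14 (2.30 ± 1.13) in 143B, with overlapping libraries for the last pair, and RBM15 (1.76 ± 0.148), TRDMT1 (2.51 ± 0.361) and FTO (6.40 ± 0.453) in HOS. In 143B, YTHDC2 and METTL14 also overlapped TRUB1 (1.23 and 3.78), RBM15 (1.94 and 3.74) and PUS7 (1.95 and 4.96), so their places are not clear. METTL14 overlapped ADAR (2.77 and 4.88) and THUMPD1 (3.02 and 6.19) as well. The HOS libraries of FTO overlapped those of WDR4 and YTHDC2, so its place in the order is not clear. NAT10 (18.0 ± 2.75 in 143B, 15.5 ± 0.962 in HOS) overlapped between the lines.

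Control libraries of the lines did not overlap for 28 members, 9 higher in 143B and 19 higher in HOS, where 88.3% of the 11807 genes in both tables did not overlap (37.4% and 50.9%). The levels followed the base composition of the transcript. Of 12 members with a transcript GC content of at least 50%, 9 were higher in 143B and 1 (YBX1) in HOS, and of the 20 below 50%, 0 were higher in 143B and 18 in HOS. The log2 ratio of control levels had a Spearman's rho of 0.91 with GC content over the 32 members and of 0.77 over 11662 genes. With length the values were -0.44 and -0.22. These are descriptions across genes that share the same libraries, and whether composition or biology sets the ratio cannot be told apart in these tables. WDR4 was 5.29 times as high in 143B, TRMT61A 4.26 times and ALYREF 3.70 times. These ratios ranged from 4.85 to 5.74, from 3.38 to 5.14 and from 3.20 to 4.21 when 1 control library was left out. METTL14 was 6.72 times as high in HOS, TRUB1 6.25 times and ZC3H13 4.39 times. Without 143B NC replicate 2 they were 10.3, 12.7 and 6.10 times as high, and without 143B NC replicate 1 they were 4.99, 4.14 and 3.43 times as high.

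**Figure D3:**
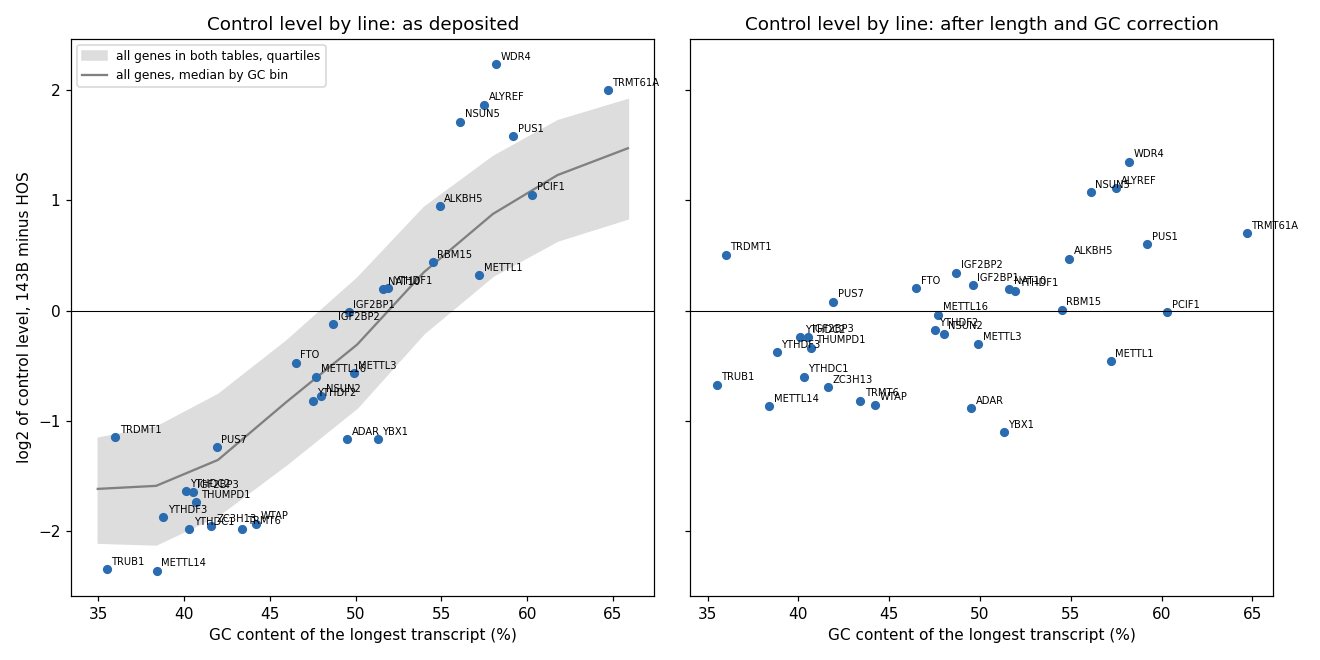
Log2 of the control level in 143B minus that in HOS for each member against the GC content of its longest transcript, as deposited (left, with the median and quartiles of all genes by GC bin in grey) and after correction for length and GC (right). On the left the members rise from -2.36 to 2.24 along the grey band, and on the right most lie closer to 0.

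After correction for length and GC the standard deviation of this log2 ratio over the members went from 1.38 to 0.62, and over all genes from 1.36 to 0.90. The members farthest from 0 were then WDR4 (1.35), ALYREF (1.11) and NSUN5 (1.07), higher in 143B, and YBX1 (-1.11), ADAR (-0.89), METTL14 (-0.87), WTAP (-0.86) and TRMT6 (-0.82), higher in HOS. THUMPD1 went from -1.74 to -0.34 and PCIF1 from 1.05 to -0.015. The correction of control levels was added after the values were seen, and it also takes out any real difference that goes with length or GC.

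The balance of partner RNAs within a library differed between the lines as well. The ratio of TRMT6 to TRMT61A was 0.0981 and 0.280 in 143B NC and 3.57 and 2.45 in HOS NC, with transcripts of 43.4% and 64.7% GC. The ratio of METTL1 to WDR4 was 0.615 and 0.764 in 143B NC and 3.12 and 2.64 in HOS NC, with transcripts of 57.2% and 58.2% GC. In the HOS sgNAT10 libraries both ratios were lower, at 1.38 and 1.47 for TRMT6 to TRMT61A and at 1.35 and 1.60 for METTL1 to WDR4. The ratio of METTL3 to METTL14 was 9.44 and 5.99 in 143B NC, 4.25 and 4.49 in 143B sgNAT10, and between 1.49 and 1.85 in the 4 HOS libraries (49.9% and 38.4% GC). The ratio of NAT10 to THUMPD1 was 5.32 and 3.22 in 143B NC and 0.726 and 0.485 in 143B sgNAT10. In HOS it was 0.832 and 1.01 in NC and 1.36 and 1.20 in sgNAT10 (51.6% and 40.7% GC). The ratio of NAT10 to THUMPD1 was thus lower under sgNAT10 in 143B and higher in HOS.

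**Figure D4:**
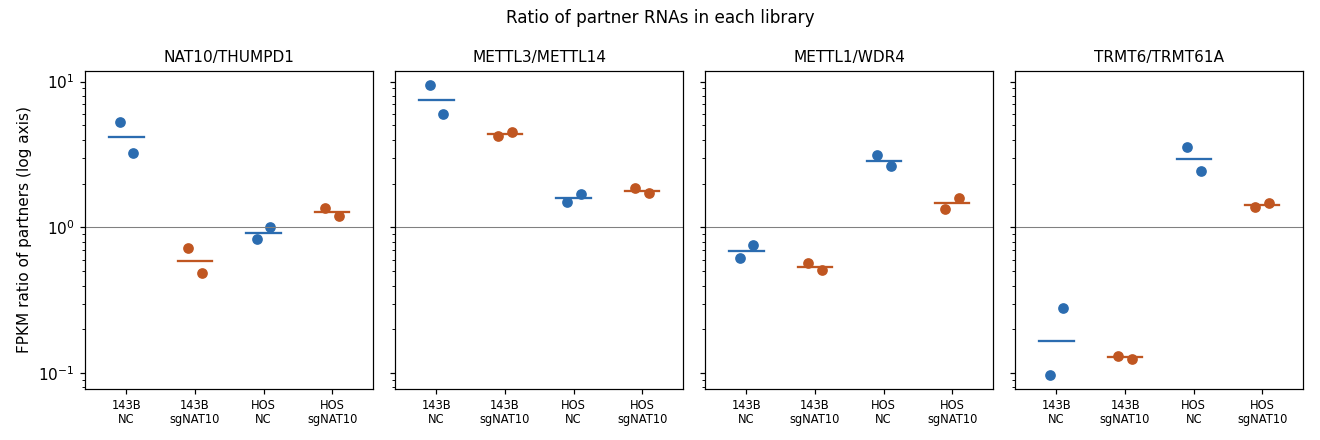
Ratio of the FPKM of partner genes in each library (log axis), with points for libraries, short lines for the geometric mean of a group, NC in blue and sgNAT10 in orange. NAT10 to THUMPD1 falls below 1 in 143B sgNAT10, and the tRNA methyltransferase pairs stand below 1 in 143B and above 1 in HOS.

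Beside the members, a wider list of 118 other genes filed here under RNA modification was counted. It holds the APOBEC3 and TET genes, whose action on RNA was not measured here. In 143B 108 were tested, of which 18 rose and 12 fell (median 0.14), where 12.9% and 25.4% of all genes did. The largest rises were NOP58, a box C/D snoRNP protein (15.23 and 36.45 FPKM in NC, 88.58 and 141 in sgNAT10, log2 2.19), the transfer RNA deaminase ADAT1 (from 3.47 ± 1.53 to 16.5 ± 0.24, 2.02) and the methyltransferase TRMT10B (1.73). The largest falls were the cytidine deaminases APOBEC3G (from 8.01 ± 0.552 to 1.20 ± 0.212 FPKM, -2.04) and APOBEC3B (36.53 and 37.95 in NC, 10.06 and 9.17 in sgNAT10, -1.85) and the deaminase subunit ADAT3 (-1.74). ADAT1 and ADAT3 thus went opposite ways. In HOS 115 were tested, of which 35 rose and 31 fell (median 0.0081), where 45.5% and 23.0% of all genes did. TET3, which oxidises methylcytosine (1.05), TRMT2B (1.03) and YRDC, which starts threonylcarbamoyladenosine synthesis (1.02), rose most. TYW3, of the wybutosine pathway (-1.02), TPRKB (-0.92) and METTL5, the 18S ribosomal RNA m6A writer (from 115 ± 0.346 to 60.6 ± 4.41 FPKM, -0.92) fell most. The 3 named falls of 143B belong to the 8 tested genes filed under editing, of which 1 rose and 3 fell in that line.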

How the data were processed

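Polyadenylated RNA of 8 libraries was sequenced on BGISeq-500, per the labels' protocols. The authors deposited FPKM in a table per line, and GRCh38, Bowtie2 and RSEM are named, without versions or roles, per the submitters' processing notes. No source used here names the annotation. Listed genes have over 0.5 FPKM in at least 2 libraries. Low values showed no steps of whole reads. From these, log2(FPKM + 1) was fitted with limma 3.58.1 (R 4.3.3, intensity trend, two-sided) for genes reaching 1 FPKM in 2 or more of a line's 4 libraries, and the difference between lines in a joint fit of the 4 group means. Fits were checked on simulated data with noise independent between genes. Those data lack the trend with GC content between 143B libraries, so the check does not cover it. Alternatives were other pseudocounts (0.1, 5), filters, scalings, variance models, a replicate block, leaving out each library, and a correction for length and GC (splines with 4 degrees of freedom, longest GENCODE 29 transcript, matched for 98.8% of tested 143B genes and 98.9% of HOS genes). The members and lists were chosen with earlier results of these data known. All members are named, and from the wider list the 3 largest rises and falls per line among called genes whose labels do not overlap.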

Additional observations from a re-analysis of the deposited data

Results flagged for a closer look

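For 13 members the change under sgNAT10 differed between the lines in a test of the difference itself (143B minus HOS, log2, limma with Benjamini-Hochberg adjustment over 10655 genes). Among the acetylation genes NAT10 differed by -1.41 (adjusted p = 0.00359) and THUMPD1 by 1.54 (0.00971). Among the methyladenosine writers WTAP differed by 1.68 (0.0123), ZC3H13 by 1.11 (0.0327), RBM15 by -1.79 (0.00295) and the cap enzyme PCIF1 by -1.84 (0.00191). The eraser ALKBH5 differed by -1.13 (0.00494) and the reader YTHDF1 by -1.48 (0.00681). The methylcytosine readers ALYREF and YBX1 differed by -1.30 (0.0058) and -1.77 (0.0052). PUS1 differed by -0.80 (0.0312), TRMT6 by 1.18 (0.0292) and ADAR by -0.996 (0.0395). NAT10 and PCIF1 were called in each line, in opposite directions, and YBX1 fell in both, by more in 143B. The differences of WTAP, ZC3H13, PUS1, TRMT6 and ADAR were not called when certain single libraries were left out. Those of NAT10 (-0.46, 0.0752), RBM15 (-0.63, 0.0741), ALKBH5 (-0.14, 0.436) and ADAR (-0.15, 0.432) were not called after the length and GC correction, and that of PUS1 turned (0.52, 0.0288). ALKBH5, ALYREF, PUS1 and ADAR were not called under median-ratio scaling (adjusted p from 0.0886 to 0.513), nor THUMPD1, WTAP, ZC3H13 and TRMT6 with libraries set to the same sum (0.0762 to 0.235).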

How the results depend on the processing

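Under the alternatives tried, 2 of the 8 calls in 143B (PCIF1 and YBX1), 4 of the 27 in HOS (RBM15, ALKBH5, YTHDF1, IGF2BP1) and 3 of the 13 between lines (PCIF1, YTHDF1, YBX1) were always kept. Depth is unknown and 2 libraries per group limit what can be called. Members called in 143B numbered 13 under quantile normalization, 18 after the length and GC correction and 21 with the replicate block added to it, a combination chosen after seeing the data. Over all genes those settings called 2797 higher and 2847 lower of 11419, 3033 and 3133 of 11281, and 3494 and 3645 of 11281. Leaving out a library gave 3 to 10 in 143B, 16 to 29 in HOS, 8 to 17 between lines and 28 to 32 members with separate controls. Of all 11807 genes listed in both tables, 90.8% to 97.2% had separate controls in those runs, so that range does not single out the members. Calls over all genes also varied with the library left out. In HOS 4 members were called with the spread shared by all 8 libraries, while in 143B METTL3, RBM15, ALYREF and TRMT6 joined the calls. Between lines 20 were called after the length and GC correction and 21 with the block added. Of 10559 genes those settings called 2910 higher and 3230 lower, and 3184 and 3506. The cause was not tested. Where a group was left with 1 library, that library is assumed to vary like the others.

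The replicate numbers are not said to mark a shared batch, and with 2 pairs per line they cannot be shown to pair the libraries. Deviations of same-numbered libraries correlated at 0.61 in 143B and -0.11 in HOS. With the replicate block 16 members were called in 143B, 25 in HOS and 18 between lines, and over all genes 2737 were higher and 4915 lower in 143B, against 1473 and 2897 without it. The block called 5267 genes higher and 2614 lower in HOS, and 2272 and 5086 between lines. With crossed numbers, an alternative chosen after seeing the data, 28 members were called in HOS, beside 5592 genes higher and 2866 lower.

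After the length and GC correction some values turned. In 143B ALKBH5 was at 0.59, NSUN5 at 0.60, PUS1 at 0.59 and METTL1 at 0.51. In HOS NAT10 was at -0.079, PCIF1 at -0.038, FTO at -0.17, IGF2BP2 at -0.0054, NSUN2 at -0.038 and TRUB1 at 0.15. Between lines IGF2BP1 was at 0.77, NSUN5 at 0.64, PUS1 at 0.52 and WDR4 at 0.56. These values were the same with the replicate block, where TRUB1 in HOS was not called. NSUN2 in HOS was at -0.028 under median-ratio scaling. Of 1737 alternative values of single members, 80 had another sign while neither they nor the reported values were called. Median-ratio scaling moved the median of all genes from -0.25 to -0.017 in 143B and from 0.19 to -0.0079 in HOS.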
